A study of Mus musculus with 6 samples.

Results

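Collagen chain genes are described here across 6 mouse livers. They were chosen by name alone, as every gene of the deposited count table whose symbol is Col, a type number, the letter a and a chain number, which gave 35 of the 20140 listed genes. Of these, 9 code for chains of fibrillar collagens, 5 for chains of the basement membrane collagen type IV and 21 for chains of other collagens. The study compared livers without a tumor, livers before metastasis and livers with metastases. Polyadenylated RNA of whole liver was sequenced on day 21 after the operation, with 2 livers per group. Sham mice received PBS (labelled control). In the premetastatic niche (PMN) group (labelled intra-C), CT26 cells, a mouse colon carcinoma line, were implanted into the cecum. In the metastasis group (labelled intra-S), CT26 cells were injected into the spleen, from which they seed the liver. The labels give only these short names, and the match to the models comes from the description of the study, which gives the BALB/c strain for both CT26 models and no genetic change for the mice. Their ages and sexes are not in the labels. The route of the tumor cells changed together with the group. CT26 cells carry the mouse genome, so their collagen transcripts and those of the liver cannot be told apart, nor can fewer cells of a type and less RNA per cell.

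Collagens are proteins of 3 chains wound into a triple helix, and each chain has its own gene. Fibrillar collagens such as types I, III and V assemble into the fibrils of scars and portal tracts. Type IV collagen, mostly built from the chains of Col4a1 and Col4a2, forms the sheet-like network of basement membranes under endothelium and epithelium, and the sinusoids of a healthy liver have only a sparse one. In the liver, stellate cells, portal fibroblasts and endothelial cells are known producers, whereas hepatocytes are known for type XVIII collagen, whose C-terminal fragment is endostatin.

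The libraries held between 32838321 and 43368309 counts, of which collagen chains took between 0.0708% and 0.0826%. An observed 0 leaves room for 3 counts, or 0.0679 to 0.0928 CPM depending on the liver, a limit that covers counting error only. CPM values (counts scaled to a common library total, here after edgeR's TMM method) are used for 1 gene between livers. TPM values, which also divide by gene length, are used for levels between genes. The livers of 1 group were not equally alike. Of the 30 chains that passed the filter on low counts, the number more than 2-fold apart within a group, after adding 0.5 CPM to each value so that low counts weigh less, was 1 in sham, 1 in PMN and 9 in metastasis. These are 3.33%, 3.33% and 30% of the chains, beside 1.23%, 4.06% and 16.6% of all 16370 tested genes. On the CPM values as they stand, 6, 5 and 12 of the chains were over 2-fold apart. The hepatocyte markers, mostly Alb, summed to between 117687 and 162727 TPM in every liver.

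By TPM, the gene of type XVIII collagen was far above all other chains. Col18a1 was at 161 and 164 TPM in sham, 188 and 149 TPM in PMN and 145 and 115 TPM in metastasis livers. It thus made up 76.0% and 79.4% of the summed collagen TPM in sham, 77.1% and 72.7% in PMN and 65.9% and 57.7% in metastasis livers, lowest in both metastasis livers. The next chains were Col14a1, a fibril-associated collagen, with a mean of 11.3 TPM over the 6 livers, Col3a1 with 9.53 TPM, Col4a1 with 8.51 TPM, Col4a2 with 6.71 TPM and Col1a2 with 5.91 TPM. The sum of all 34 chains other than Col18a1 was 50.7 and 42.4 TPM in sham, 56.0 and 56.0 TPM in PMN and 75.3 and 84.4 TPM in metastasis livers, without overlap between the groups. Both metastasis livers reached it with different chains. Type IV chains took 41.0% of that sum in metastasis liver 1 and 21.7% in metastasis liver 2, while fibrillar chains took 25.1% and 54.7%. The type IV share was 15.1% and 16.6% in sham and 29.8% and 31.7% in PMN, and fibrillar chains took between 30.5% and 35.8% in these 4 livers. These sums and shares are descriptions, with no test.

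**Figure D1:**
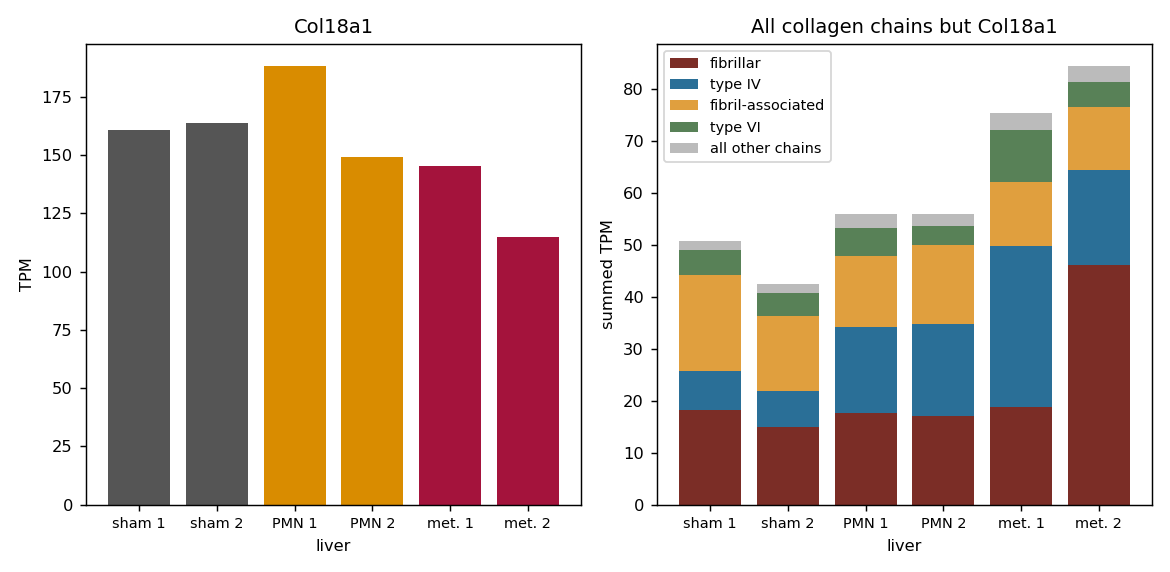
The left plot shows Col18a1 in TPM for each liver, and the right plot the summed TPM of all other collagen chains, stacked by class, with 1 bar per liver (met., metastasis). The right bars reach 84.4 TPM in metastasis liver 2, mostly of fibrillar chains, and the type IV part is the largest in metastasis liver 1.

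The first comparison, of PMN with sham livers, asks which chains differed in a liver before metastases were seen. Col4a1, Col4a2 and Col5a2 rose and no chain fell. That is 3 of the 30 tested chains higher (10%), beside 4.92% of all tested genes higher and 2.38% lower. The median log2 fold change was 0.14 over the tested chains and 0.01 over all tested genes. The groups did not overlap, with the PMN livers higher, for 10 of the 30 chains, beside 34.4% of all genes, and with the PMN livers lower for 4, beside 34% of all genes. The second comparison asks the same of livers with metastases. Here Col1a1, Col1a2, Col4a1, Col4a2, Col5a2 and Col13a1 rose and Col20a1 fell. These are 7 of 30 tested chains (23.3%), beside 6.78% of all tested genes higher and 3.95% lower. The groups did not overlap, with the metastasis livers higher, for 10 chains, beside 30.4% of all genes, and with them lower for 5, beside 30% of all genes. The median log2 fold change was 0.44 over the tested chains and 0.04 over all tested genes. For 11 further chains the fitted change was below 0 with no call, so the chains did not all move one way. No chain was called against sham when either sham liver was left out, and in metastasis 2 chains were called higher without PMN liver 1, 1 without PMN liver 2 and 0 with the PMN livers left out of the fit. Both comparisons share the sham livers, and adjusted p-values are those of edgeR's quasi-likelihood test with Benjamini-Hochberg adjustment over all tested genes.

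**Figure D2:**
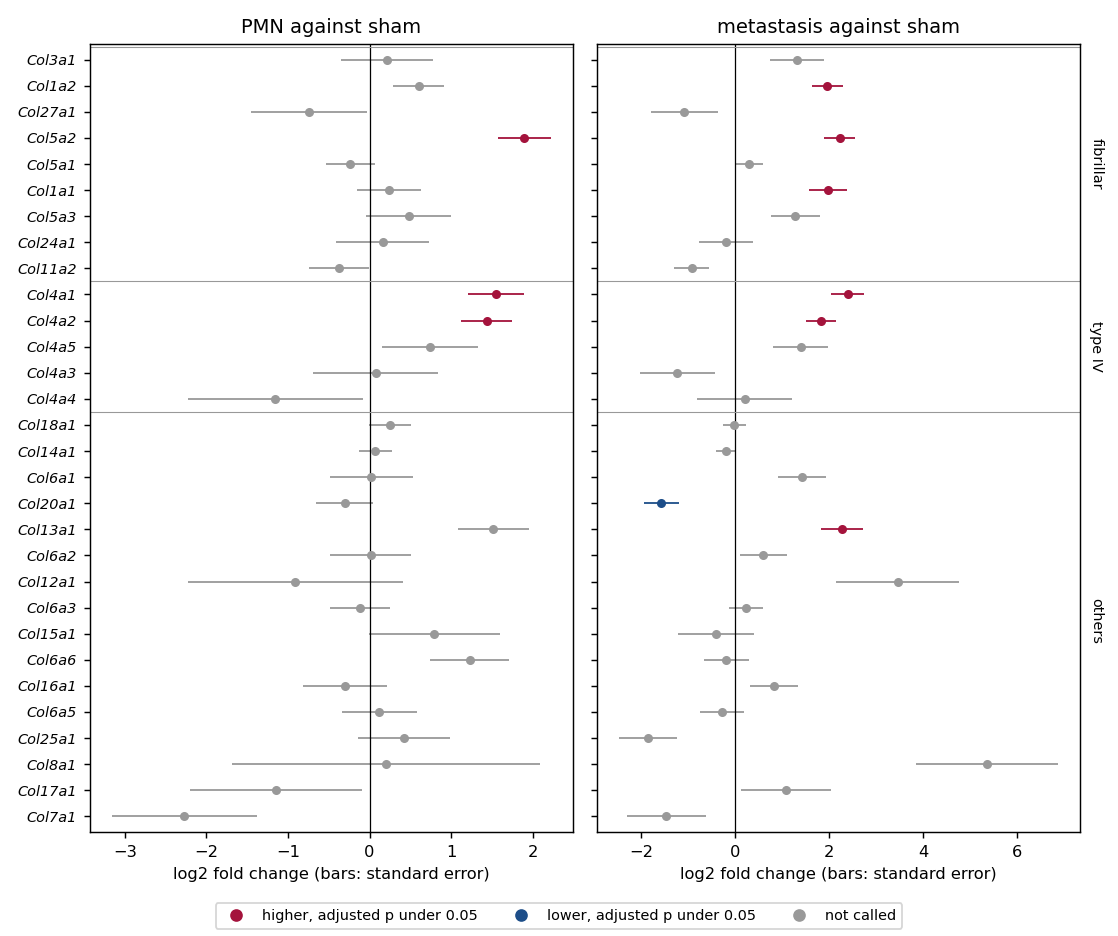
Each row is 1 of the 30 tested chains, ordered by class and then by mean TPM. Points give the log2 fold change against sham with its standard error as bars, for PMN on the left and metastasis on the right, with 3 chains called higher in PMN and 6 higher and 1 lower in metastasis.

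The type IV chains Col4a1 and Col4a2 form the common heterotrimer of basement membranes and are transcribed in opposite directions from a shared start region. They lie at chr8:11198423-11312889 and chr8:11312805-11449287 (RefSeq genes of GRCm38.p6, the build called mm10). The GENCODE annotation of that build starts Col4a1 at 11312826 on the minus strand and Col4a2 at 11312805 on the plus strand. Their first exons thus share 22 bases, printed in capitals in this plus-strand stretch of RefSeq sequence, chr8:11312801-11312830, which is shown because both called type IV chains start there:
Col4a1 and Col4a2: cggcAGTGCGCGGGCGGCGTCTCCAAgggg
In the 250 bases before each start, a CCAAT box (CCAAT, on either strand) was present for both genes, as in 33.8% of all promoter windows of this length.

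Col4a1 was at 10.5 and 11.4 CPM in sham, 30.3 and 34.1 CPM in PMN and 77.1 and 37.8 CPM in metastasis livers. Every tumor-bearing liver was above both sham livers, and metastasis liver 1 stood well above the rest. Its log2 fold change against sham was 1.55 ± 0.34 (SE, n = 2 per group) in PMN, with an edgeR adjusted p of 0.0476, and 2.39 ± 0.35 in metastasis, with an edgeR adjusted p of 0.0151. Col4a2 was at 10.3 and 8.22 CPM in sham, 25.1 and 24.9 CPM in PMN and 42.5 and 23.3 CPM in metastasis livers. Again no tumor-bearing liver overlapped the sham livers, whereas metastasis liver 2 lay just below the PMN livers. Its log2 fold change was 1.43 ± 0.31 in PMN (edgeR adjusted p = 0.0458) and 1.83 ± 0.32 in metastasis (edgeR adjusted p = 0.0216). The calls in PMN were close to the threshold and the adjusted p of both genes was over 0.05 without TMM scaling, with limma on log2(TPM + 1) or log2(TPM + 0.1) and when either sham or either PMN liver was left out. That of Col4a1 was also over 0.05 with the replicate number as a block and with TMM factors made without the 100 most abundant genes. The log2 fold changes were at least 1.14 and 1.04 under every alternative run.

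The TPM ratio of Col4a1 to Col4a2 was 0.87 and 1.19 in sham, 1.03 and 1.17 in PMN and 1.56 and 1.39 in metastasis livers. It was thus close to an equal number of transcripts in the first 4 livers and highest in both metastasis livers. The other type IV chains, which form the networks of specialised basement membranes such as that of the kidney glomerulus, were much lower. Col4a5 was at 2.07 and 1.77 CPM in sham, 4.86 and 1.52 CPM in PMN and 3.65 and 6.40 CPM in metastasis livers, with an edgeR adjusted p of 0.171 in metastasis. Col4a3 and Col4a4 were under 1 CPM in every liver, without a call.

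Among the fibrillar chains, the type V chain Col5a2 was the only one that rose in both tumor-bearing groups. Type V collagen sits inside type I fibrils and controls their nucleation and width. Col5a2, at chr1:45374331-45503282, was at 2.07 and 1.45 CPM in sham, 7.38 and 5.72 CPM in PMN and 7.23 and 9.20 CPM in metastasis livers. The tumor-bearing livers of both groups lay together, well above the sham livers. The log2 fold change was 1.90 ± 0.32 (SE) in PMN, with an edgeR adjusted p of 0.0267, and 2.22 ± 0.33 in metastasis, with an edgeR adjusted p of 0.0147. The call in PMN was lost with limma on log2(TPM + 1) and when either sham or either PMN liver was left out, and the call in metastasis when either sham liver was left out or only these groups were fitted. Its partner chain Col5a1 was between 3.87 and 7.41 CPM in the 6 livers, with log2 fold changes of -0.24 ± 0.30 and 0.28 ± 0.30 and no call. The TPM ratio of Col5a2 to Col5a1 was therefore 0.49 and 0.38 in sham livers but 2.46 and 1.51 in PMN and 1.80 and 1.60 in metastasis livers. Col5a3, the third type V chain, was at 0.67 and 0.81 CPM in sham, 0.69 and 1.39 CPM in PMN and 1.92 and 1.67 CPM in metastasis livers, with an edgeR adjusted p of 0.158 in metastasis.

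The type I chains, which make the main fibril of scar tissue as trimers of 2 Col1a1 chains and 1 Col1a2 chain, were higher in the metastasis livers. Col1a1, at chr11:94936224-94953042, was at 1.68 and 2.06 CPM in sham, 2.85 and 1.55 CPM in PMN and 6.24 and 8.49 CPM in metastasis livers. The PMN livers lay on both sides of the sham livers. The log2 fold change was 0.24 ± 0.40 in PMN (edgeR adjusted p = 0.740) and 1.98 ± 0.40 in metastasis (edgeR adjusted p = 0.0319). That call was lost in 6 of 16 alternatives, among them limma on log2(TPM + 0.1) and the fit of only the groups compared. Col1a2, at chr6:4505618-4541543, was at 8.30 and 6.61 CPM in sham, 13.1 and 9.53 CPM in PMN and 22.0 and 36.1 CPM in metastasis livers. Each group lay above the one before it, with no overlap. The log2 fold change was 0.60 ± 0.31 in PMN (edgeR adjusted p = 0.272) and 1.96 ± 0.32 in metastasis (edgeR adjusted p = 0.0191). The call of Col1a2 was lost in 5 of 16 alternatives, among them the fit of only the groups compared. Per length, Col1a2 was above Col1a1 in every liver, with TPM ratios of Col1a1 to Col1a2 between 0.14 and 0.27 that did not separate the groups, although the protein holds more Col1a1 than Col1a2 chains.

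Col3a1, which is co-assembled with type I collagen in soft tissues, did not pass the test. It was at 16.9 and 17.8 CPM in sham and 20.6 and 19.7 CPM in PMN livers, then at 17.1 CPM in metastasis liver 1 and 68.8 CPM in metastasis liver 2. The whole difference thus lay in 1 liver, and the log2 fold change of 1.31 ± 0.57 in metastasis had an edgeR adjusted p of 0.182. Without metastasis liver 1 the log2 fold change was 1.99 and Col3a1 was called, and without metastasis liver 2 it was -0.02. Col3a1 and Col5a2 are neighbours on chromosome 1, with 24624 bases between the RefSeq genes, but their TPM ratio (Col5a2 to Col3a1) was 0.10 and 0.07 in sham, 0.30 and 0.24 in PMN and 0.36 and 0.11 in metastasis livers, with metastasis liver 2 close to the sham livers. Col27a1, a fibrillar chain of cartilage, went from 16.4 and 6.61 CPM in sham to 5.73 and 8.01 CPM in PMN and 2.01 and 8.78 CPM in metastasis livers, with overlap and no call. Col11a2 and Col24a1 stayed under 3 CPM in every liver, without a call.

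**Figure D3:**
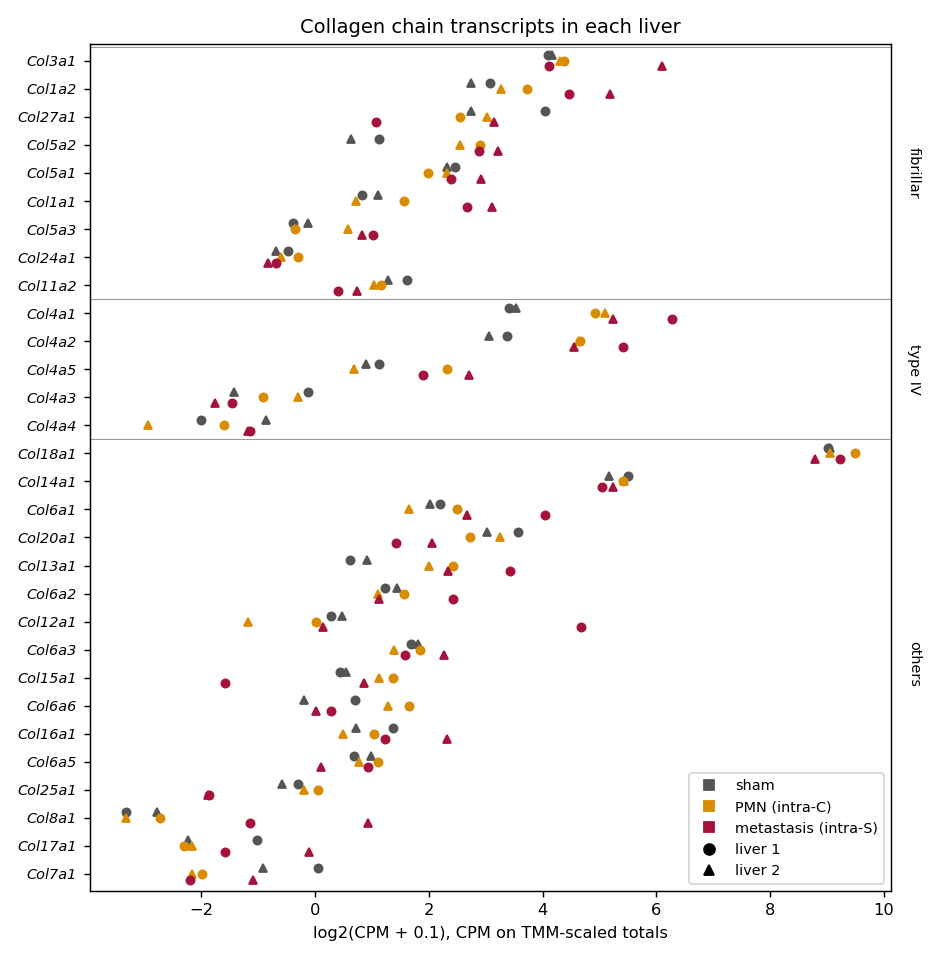
Each point is 1 liver, placed by log2(CPM + 0.1), with circles for liver 1 and triangles for liver 2 of a group and rows for the 30 tested chains by class and mean TPM. The points of Col4a1, Col4a2 and Col5a2 of both tumor-bearing groups lie to the right of the sham points, while Col18a1 and Col14a1 show no such gap.

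The other collagens gave 2 calls, 1 higher and 1 lower, both in metastasis livers. These are 12.5% of the 16 tested, beside 6.78% of all tested genes higher and 3.95% lower, which is close to the background. Col13a1 codes for a transmembrane collagen found at cell adhesion sites and neuromuscular junctions. It was at 1.43 and 1.79 CPM in sham, 5.27 and 3.93 CPM in PMN and 10.6 and 4.98 CPM in metastasis livers. All tumor-bearing livers lay above the sham livers. The log2 fold change was 1.51 ± 0.43 in PMN, which missed the threshold (edgeR adjusted p = 0.0871). Col13a1 was called there in 4 of 16 alternatives, among them DESeq2 and the edgeR fit of only the groups compared. In metastasis it was 2.27 ± 0.44 (edgeR adjusted p = 0.0291), a call lost in 6 of 16 alternatives. Limma on log2(TPM + 1) and the fit of only the groups compared were among these. Col13a1 lies at chr10:61838234-61979206 on the minus strand. The 152 bases before the RefSeq gene, chr10:61979207-61979358 of GRCm38.p6, are shown because this is the called chain outside types I, IV and V whose upstream stretch is free of annotated exons. Capitals mark the only match in these bases to the motifs searched, the TATA box letters TATAAA, present in 12.4% of all promoter windows. The match lies at -237 to -232 from the start used for the promoter window, which is inside the RefSeq gene. Whether it works as a TATA box was not tested. The bases are written in the direction of the gene:
Col13a1: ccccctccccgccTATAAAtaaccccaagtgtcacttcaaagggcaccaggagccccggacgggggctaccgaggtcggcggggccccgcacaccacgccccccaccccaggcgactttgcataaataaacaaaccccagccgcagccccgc
The other motifs, each searched on both strands, were a CCAAT box (CCAAT), a GC box (GGGCGG), a STAT motif (TTCNNNGAA) and a SMAD motif (GTCTAGAC). Of the 7 called chains, 5 had a promoter window, and none of these held the STAT or the SMAD letters, which 7.02% and 0.167% of all windows hold. In so few windows, no match was the likely outcome at these shares, so their absence says nothing about how the chains are regulated.

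Col20a1, which belongs to the fibril-associated collagens, fell in metastasis livers. It was at 11.8 and 7.99 CPM in sham, 6.54 and 9.47 CPM in PMN and 2.60 and 4.05 CPM in metastasis livers. Both metastasis livers lay below all others, and the PMN and sham livers overlapped. The log2 fold change was -1.57 ± 0.36 in metastasis (edgeR adjusted p = 0.0446) and -0.30 ± 0.35 in PMN (edgeR adjusted p = 0.627). The call in metastasis, the closest of the 7 to the threshold, was lost in 7 of 16 alternatives, which were the replicate number as a block, the fit of only the groups compared, and the fits without either sham liver, either PMN liver or metastasis liver 1. An annotated transcript on the same strand shares 79 bases, 1.54% of its exon bases, so some of these counts may belong to either. Col14a1, the most abundant fibril-associated chain and a known product of portal fibroblasts and stellate cells, was between 33.1 and 45.3 CPM in all 6 livers, with log2 fold changes of 0.07 ± 0.20 in PMN and -0.20 ± 0.20 in metastasis and no call.

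Type XVIII collagen, the most abundant, did not pass the test in either comparison. Col18a1 was at 519 and 530 CPM in sham, 716 and 532 CPM in PMN and 597 and 441 CPM in metastasis livers. Both PMN livers lay above the sham livers, liver 2 only barely, and the metastasis livers lay on both sides of them. Its log2 fold change was 0.25 ± 0.25 in PMN (edgeR adjusted p = 0.575) and -0.02 ± 0.25 in metastasis (edgeR adjusted p = 0.975). Col15a1, its relative in vascular basement membranes, was at 1.26 and 1.36 CPM in sham, 2.47 and 2.07 CPM in PMN, but at 0.23 CPM in metastasis liver 1 and 1.72 CPM in metastasis liver 2. Neither comparison called it, and it was called lower in metastasis only without metastasis liver 2.

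The type VI chains, which form beaded filaments around cells, were not called in the edgeR fit of all 6 livers. Col6a1 was at 4.51 and 3.94 CPM in sham, 5.53 and 3.03 CPM in PMN and 16.3 and 6.23 CPM in metastasis livers, with a log2 fold change of 1.42 ± 0.51 in metastasis (edgeR adjusted p = 0.126). Col6a2, which lies next to it on chromosome 10, was at 2.24 and 2.60 CPM in sham, 2.85 and 2.04 CPM in PMN and 5.28 and 2.09 CPM in metastasis livers. Over the alternatives, the log2 fold changes in metastasis ran from 0.57 to 1.95 for Col6a1 and from -0.21 to 1.12 for Col6a2. Col6a3 was between 2.51 and 4.71 CPM throughout. The protein needs 1 chain of each kind, yet the TPM ratio of Col6a1 to Col6a2 was between 2.25 and 3.04 in sham and PMN livers and 4.68 and 4.52 in metastasis livers. The log2 fold changes of these 3 chains in PMN were between -0.12 and 0.02. The further type VI chains Col6a5 and Col6a6 were between 0.77 and 3.06 CPM with no call.

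**Figure D4:**
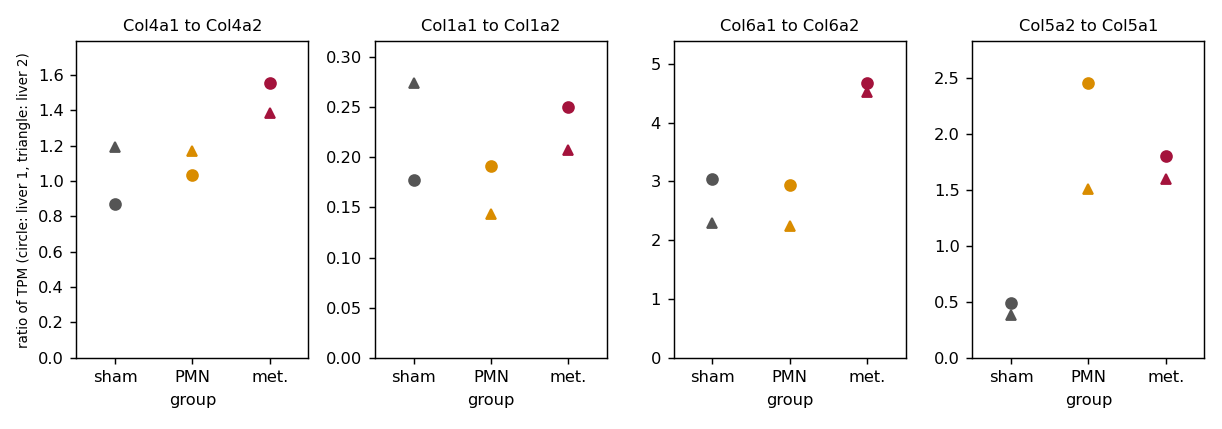
The 4 plots give the TPM ratio of chains of 1 collagen type for each liver (circle, liver 1; triangle, liver 2; met., metastasis), on linear axes from 0. Col5a2 to Col5a1 is under 0.5 in the sham livers and over 1.5 in all others, and Col6a1 to Col6a2 is over 4.5 in the metastasis livers only.

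The remaining chains were low. Col25a1, a transmembrane collagen of neurons, was at 0.71 and 0.57 CPM in sham, 0.94 and 0.77 CPM in PMN and 0.17 and 0.17 CPM in metastasis livers, with a log2 fold change of -1.86 ± 0.62 that missed the threshold (edgeR adjusted p = 0.103). Col7a1, the chain of anchoring fibrils, was at 0.94 and 0.43 CPM in sham and between 0.12 and 0.37 CPM in the tumor-bearing livers, without a call. For Col25a1 both metastasis livers were the lowest, whereas for Col7a1 both sham livers were the highest. Col8a1, a short-chain collagen of vessel walls, had 0 and 2 counts in sham, 2 and 0 in PMN, 12 in metastasis liver 1 and 74 in metastasis liver 2, which were 0.35 and 1.82 CPM. The edgeR adjusted p was 0.0702, and DESeq2 called it higher in metastasis. Col10a1, the collagen of hypertrophic cartilage, had 2 and 1 counts in sham, 0 and 6 in PMN and 0 and 0 in metastasis livers. It was not tested, nor were Col6a4, Col8a2, Col9a3 and Col23a1, each with 17 counts or fewer per liver.

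The third comparison set metastasis directly against PMN livers, which asks what differed between livers with and before metastases. No collagen chain was called, and no gene of the table was called in either direction (0% of 16370) by edgeR's quasi-likelihood test. At an unadjusted edgeR p under 0.05, 6 of the 30 tested chains were higher and 3 lower in metastasis, beside 1144 and 1049 of all 16370 tested genes. DESeq2 called 3 chains higher, Col1a1, Col1a2 and Col12a1, and none lower, beside 240 and 287 of all genes. The edgeR log2 fold changes were 1.74 ± 0.40 for Col1a1 and 1.36 ± 0.32 for Col1a2, both with an adjusted p of 0.285 and without overlap between the groups. For the type IV chains they were 0.84 ± 0.34 (Col4a1, adjusted p = 0.366) and 0.39 ± 0.31 (Col4a2, adjusted p = 0.587), and for Col5a2 0.33 ± 0.31 (adjusted p = 0.661). That type I chains were called against sham in metastasis and not in PMN livers is therefore not shown by edgeR to be a difference between these groups.

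Several of these values rested on unlike metastasis livers. On CPM values without an offset, metastasis liver 1 was over 2-fold above metastasis liver 2 for Col4a1, Col6a1, Col6a2, Col12a1 and Col13a1. Metastasis liver 2 was over 2-fold above metastasis liver 1 for Col3a1, Col7a1, Col8a1, Col15a1, Col16a1, Col17a1 and Col27a1, of which Col7a1 and Col17a1 were under 1 CPM in both. Col12a1, a fibril-associated chain of tendon and wounds, was the extreme case. It was at 1.11 and 1.29 CPM in sham, 0.92 and 0.34 CPM in PMN, 25.5 CPM in metastasis liver 1 and 1.01 CPM in metastasis liver 2. Its log2 fold change of 3.46 ± 1.31 in metastasis was not called (edgeR adjusted p = 0.137), but DESeq2 called it, as did edgeR without metastasis liver 2. In metastasis against sham, DESeq2 called the same 6 chains higher as edgeR, and also Col8a1 and Col12a1. Under every alternative run, the log2 fold changes in metastasis were at least 0.93 for Col1a1, 1.378 for Col1a2 and 1.73 for Col4a1. They were at least 1.24 for Col4a2, 1.03 for Col5a2 and 0.98 for Col13a1. Whether the livers differed in tumor load is not given in the labels and was not tested.

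**Figure D5:**
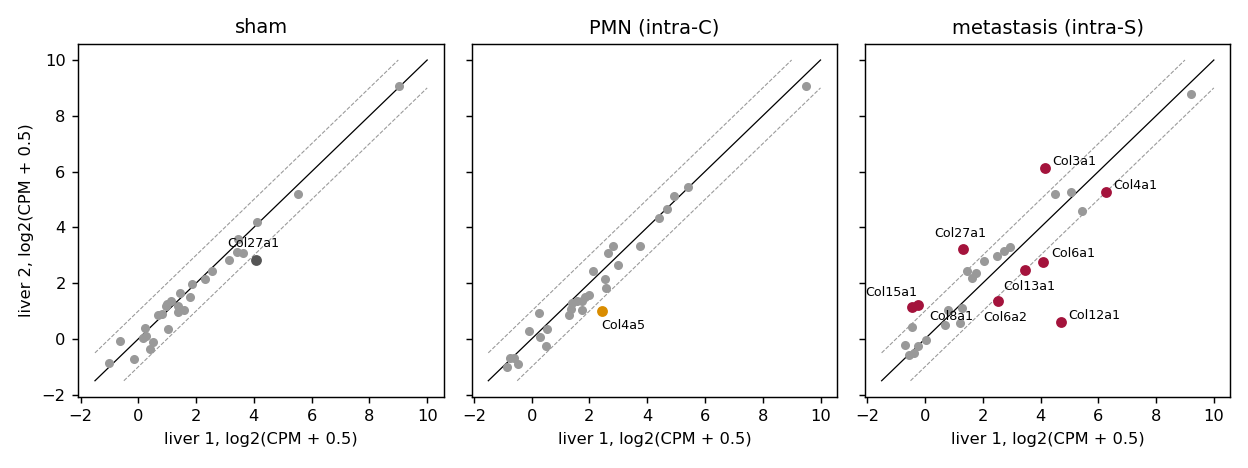
Each point is 1 of the 30 tested chains, with log2(CPM + 0.5) in liver 1 on the x axis and in liver 2 on the y axis of the same group. Named points lie outside the dashed lines, which mark a 2-fold difference after the 0.5 CPM is added: 1 chain in sham, 1 in PMN and 9 in metastasis livers.

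Genes that make and modify collagen were compared in the same fit. Of 38 tested genes for collagen synthesis, export, propeptide removal and cross-linking, Colgalt1, a collagen galactosyltransferase, rose in PMN livers (18.9 and 21.6 CPM in sham, 38.8 and 43.6 CPM in PMN, edgeR adjusted p = 0.0469), and none fell. In metastasis livers Plod2, Lox and Loxl2 rose and none fell. Plod2, a lysyl hydroxylase of the chain ends, was at 0.81 and 0.61 CPM in sham and 3.59 and 3.75 CPM in metastasis livers (edgeR adjusted p = 0.0226). Both called cross-linking enzymes were higher in metastasis liver 1 than in metastasis liver 2. Lox had 0 and 1 counts in sham but 12.7 CPM in metastasis liver 1 and 0.79 CPM in metastasis liver 2 (edgeR adjusted p = 0.0352), and Loxl2 was at 1.87 and 1.81 CPM in sham and 25.3 and 7.63 CPM in metastasis (edgeR adjusted p = 0.0249). Of the uncalled enzymes of this kind, Loxl3 was higher in metastasis liver 2, at 0.67 and 7.80 CPM. The calls were 2.63% of the 38 genes in PMN and 7.89% in metastasis, beside 4.92% and 6.78% of all tested genes called higher, so that neither share stood far from the background. The median log2 fold change of the 38 genes was 0.40 in PMN and 0.71 in metastasis livers, beside 0.01 and 0.04 over all genes. Serpinh1, the collagen chaperone HSP47, was at 8.62 and 8.06 CPM in sham, 19.1 and 15.6 CPM in PMN and 7.06 and 26.6 CPM in metastasis livers, without a call. Serpinh1 is named after its values were seen, as are the uncalled chains Col4a3, Col4a4, Col4a5, Col5a1, Col5a3, Col6a5, Col6a6, Col11a2, Col12a1, Col16a1, Col17a1, Col24a1 and Col27a1 and the enzyme Loxl3.

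Of 16 tested fibril regulators, Fn1 and Thbs1 rose in PMN livers, and Fn1, Thbs1, Thbs2, Dcn and Sparc in metastasis livers, and none fell. These are 12.5% and 31.2% of the list, beside 4.92% and 6.78% of all tested genes called higher. The number of calls in the lists of this and the previous paragraph changed with the fit, as given below for these lists together. Fn1, whose product fibronectin is also a plasma protein of hepatocytes, was at 910 and 936 CPM in sham, 4436 and 3682 CPM in PMN and 3510 and 3154 CPM in metastasis livers. Sparc, a collagen-binding protein, was at 46.4 and 45.3 CPM in sham, 75.7 and 65.5 CPM in PMN and 111 and 95.0 CPM in metastasis livers, with an edgeR adjusted p of 0.0206 in metastasis. Dcn, which binds type I fibrils, had a log2 fold change of 0.93 ± 0.19 there (edgeR adjusted p = 0.0333). Of 15 partners of type IV collagen in basement membranes, none was called in PMN and 2 rose in metastasis livers. These were Nid1, which links laminin to type IV collagen (9.81 and 9.28 CPM in sham, 42.4 and 25.7 CPM in PMN, 140.3 and 49.0 CPM in metastasis, edgeR adjusted p = 0.0184), and the laminin chain Lamb1 (edgeR adjusted p = 0.0284), so that the called share was 0% in PMN and 13.3% in metastasis. Of 12 tested collagen receptors, Mrc1, an endocytic receptor of macrophages and sinusoidal endothelium, rose in both (edgeR adjusted p = 0.00873 and 0.00762), and the integrin chain Itga2 rose in metastasis (edgeR adjusted p = 0.0346), which are 8.33% and 16.7% of that list.

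Markers of cell types moved beside these chains, and their part in the results was not tested. Of 12 endothelial markers, 5 rose in PMN and 5 in metastasis livers, and none fell. These are 41.7% of the list in each, beside 4.92% and 6.78% of all tested genes called higher, but with a liver left out the counts ran from 0 to 11 in PMN and from 0 to 9 in metastasis. Their summed level was 76.5 and 84.1 TPM in sham, 171 and 182 TPM in PMN and 223 and 146 TPM in metastasis livers, and Pecam1 went from 4.93 and 6.45 CPM in sham to between 24.0 and 35.9 CPM in the others. Col4a1 and Col4a2 were thus higher in the same 4 livers in which this sum was above both sham livers. Lyve1 alone was at 75.8 TPM in metastasis liver 1, and without it the sums were 75.1 and 83.3 TPM in sham, 164 and 175 TPM in PMN and 147 and 135 TPM in metastasis livers, so that the PMN livers then had the most and metastasis liver 1, with the most Col4a1 and Col4a2, did not. Of 13 tested stellate cell and fibroblast markers, none was called in PMN and Pdgfra and Rgs5 rose in metastasis livers (15.4% of the list). No marker of this list was called in metastasis with either limma fit or with only the 2 groups compared. The sum of the 13 was 58.9 and 57.7 TPM in sham, 52.8 and 63.1 TPM in PMN and 87.4 and 73.5 TPM in metastasis livers. Rgs5 alone was at 18.6 and 18.4 TPM in sham and 55.9 and 31.4 TPM in metastasis livers, and the 12 other markers summed to 40.3 and 39.4 TPM in sham, 35.5 and 35.1 TPM in PMN and 31.5 and 42.1 TPM in metastasis livers, which then lay on either side of the sham livers. None of these markers was at 0 in any liver, and Acta2, a marker of activated stellate cells, was under 1 CPM in every liver. Lrat, a defining stellate gene, was at 12.7 and 15.3 CPM in PMN livers, below both sham livers (24.96 and 21.03 CPM). In metastasis livers Lrat was at 26.7 and 29.7 CPM, above both sham livers. Its log2 fold change in PMN was -0.72 ± 0.20 (edgeR adjusted p = 0.0841), without a call. Of the 13 markers, 5 were higher and 3 lower in PMN without overlap with the sham livers. All 8 Kupffer cell and macrophage markers (100%) rose in PMN and 7 (87.5%) in metastasis livers (sums of 167 to 175 TPM in sham, 720 to 945 TPM in PMN and 392 to 824 TPM in metastasis), and all 8 neutrophil markers (100%) rose in both, with Mpo, Elane and Camp at 0 counts in both sham livers. No mesothelial marker and 1 cholangiocyte marker, Sox9 in metastasis, was called. Of 8 hepatocyte markers, Apob rose in PMN (edgeR adjusted p = 0.0456), and in metastasis Serpina1c rose (edgeR adjusted p = 0.0437) and Cyp2e1 fell, with a log2 fold change of -1.67 ± 0.23 (edgeR adjusted p = 0.0133). That is 12.5% of the hepatocyte list in PMN and 25% in metastasis, or 1 and 2 genes.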

How the data were processed

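The authors aligned reads to mm10 with HISAT2 2.1.0 and counted them per gene with featureCounts (Subread 2.0.6), per the submitters' notes. The annotation and the use of strand are not given in the sources used here. They deposited the raw count of each gene and TPM values, computed from counts and gene lengths. Each column name matched 1 liver.

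Raw counts were tested with edgeR 4.0.16 (R 4.3.3) by the quasi-likelihood test, with TMM, filterByExpr (count minimum 10), group as the only term and a single fit of the 6 livers. P-values were adjusted over 16370 genes after Benjamini and Hochberg. The standard error (SE) is the log2 fold change divided by the root of the F statistic. With 2 livers per group, p-values measure only the spread between these livers. The procedure was tested on simulated data. DESeq2 1.42.0, limma 3.58.1 on log2 TPM, other filters and scalings, a block and each liver left out were alternatives.

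Named by rule were called chains, the 2 most abundant per class and the chains of types I, III, VI, XV and XVIII with Col4a1 and Col4a2. Of called genes of other lists, at most 6 were named. The rule for the members used gene names only. That this gene family was taken up, and which lists were set beside it, was decided with earlier results of these data known. The lists came from general knowledge. Promoter windows came from RefSeq (GRCm38.p6) for 29 of 35 chains.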

Additional observations from a re-analysis of the deposited data

How the results depend on the processing

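The data are limited by 2 livers per group and by chains of few counts. A left-out liver leaves a group with 1 liver, assumed to vary like the others. The cause of the changes below was not tested. Values are log2 fold changes where not counts. The counts in this section stand without the share of all genes called in the same fit.

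In PMN against sham, 3 chains were higher. The count was 1 with library size without TMM and with limma on log2(TPM + 0.1), 0 with limma on log2(TPM + 1) and 0 to 4 with a liver left out; no chain was called lower in these fits. In metastasis against sham, 6 were higher and 1 lower. Limma on log2(TPM + 1) lost Col13a1 and on log2(TPM + 0.1) Col1a1, leaving 5 higher each. With only the 2 groups compared there were 0 and 0 calls, and with a liver left out 0 to 9 and 0 to 3. Without PMN liver 1 only Col4a1 and Col5a2, and without PMN liver 2 only Col5a2, were called. In metastasis against PMN, 0 became 3 higher with DESeq2, and 0 to 6 higher and 0 to 2 lower with a liver left out. Without either sham liver, no chain was called.

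With the replicate number as a block (replicate block), Col4a1 was not called in PMN and Col20a1 was not called in metastasis, leaving 2 and 0 calls of 3 higher and 1 lower. Col6a1 (-0.071) and Col6a2 (-0.047) then changed sign in PMN. Same-numbered livers did not deviate together in every pair (r across 16370 genes of -0.04, 0.11 and 0.07). With 2 livers per group, this cannot tell whether same-numbered livers were handled together.

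Uncalled chains also changed sign. Library size without TMM moved the median of all genes to -0.25 in PMN and -0.23 in metastasis, and gave in PMN Col14a1 -0.19, Col18a1 -0.020, Col1a1 -0.039, Col3a1 -0.044, Col6a1 -0.26, Col6a2 -0.25 and Col8a1 -0.052, and in metastasis Col6a3 -0.029. TMM without the 100 most abundant genes gave Col6a2 -0.0030 in PMN. In PMN, limma on log2(TPM + 1) gave Col14a1 -0.10, Col6a1 -0.15, Col6a2 -0.084 and Col8a1 -0.00060, and on log2(TPM + 0.1) Col14a1 -0.11, Col1a1 -0.0041, Col6a1 -0.22, Col6a2 -0.17 and Col8a1 -0.0051. In metastasis, both gave Col6a3 below 0 (-0.031 and -0.091), and only the 2 groups compared gave Col18a1 0.0011.

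With a liver left out, ranges that crossed 0 were, in PMN, Col14a1 -0.089 to 0.25, Col1a1 -0.27 to 0.63, Col20a1 -0.57 to 0.0070, Col6a1 -0.48 to 0.41, Col6a2 -0.24 to 0.26, Col6a3 -0.37 to 0.13 and Col8a1 -3.03 to 3.19. In metastasis against sham they were Col15a1 -2.47 to 0.40, Col18a1 -0.25 to 0.19, Col3a1 -0.017 to 1.99, Col6a2 -0.21 to 1.12 and Col6a3 -0.17 to 0.54. Against PMN, of the called chains, it was Col4a2 with -0.10 to 0.76.

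Counts called among the synthesis, regulator, partner and receptor genes were 4 in PMN and 12 in metastasis. They were 13 and 26 with DESeq2, 28 and 3 with only the 2 groups compared, and 0 to 27 and 0 to 30 with a liver left out. Stellate cell and fibroblast markers (0 and 2) were 2 in PMN with DESeq2, 1 in PMN with at least 10 counts in every liver, 2 and 0 with only the 2 groups compared, and in metastasis 1 with the block, 1 without TMM and 0 with either limma fit; a liver left out gave 0 to 2 and 0 to 5. Endothelial markers (5 and 5) were 10 and 9 with DESeq2, 10 and 2 with only the 2 groups compared, in PMN 3 without TMM, 2 with limma on log2(TPM + 1) and 3 on log2(TPM + 0.1), and 0 to 11 and 0 to 9 with a liver left out. With types XV, XVIII and VII counted in, the mean basement membrane sum was 170 TPM in sham, 187 in PMN and 155 in metastasis livers instead of 7.36, 17.2 and 24.6 TPM.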

Other observations

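Beyond the chains themselves, the position of the collagen genes gave pairs that share a neighbourhood but not a level. Col6a2, Col6a1 and Col18a1 lie in a row on the minus strand of chromosome 10, with 85161 and 326133 bases between the RefSeq genes. Col18a1 had a mean of 153.7 TPM over the 6 livers and Col6a1 of 3.20 TPM, and neither was called in any of the 3 edgeR comparisons.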
